A study of Mus musculus with 18 samples.

Results

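The immediate early genes Fos, Fosb, Jun, Junb, Egr1, Egr2, Nr4a1, Klf4, Ier2 and Ier3 were examined in the lungs of mice exposed by mouth to a mixture of polycyclic aromatic hydrocarbons. They were chosen by name, and every array probe whose RefSeq accession maps to one of them was taken. This gave 10 genes with 1 probe each, out of 20660 named genes and 55681 probes on the array. Male MutaTMMouse, a transgenic strain that carries a bacterial lacZ reporter for mutation assays, were about 12 weeks old and received the 4PAH-Mix (benzo[a]pyrene, benz[a]anthracene, benzo[b]fluoranthene and chrysene) in olive oil by daily gavage for 28 days. Lungs were taken 72 h after the last gavage, and RNA came from randomly taken pieces of the tissue. The paper states that the right lobe was the part collected. The 18 mice comprised 5 vehicle controls given olive oil alone, 4 mice at the low dose (12.5 mg benzo[a]pyrene equivalents per kg body weight per day), 5 at the medium dose (25 mg) and 4 at the high dose (50 mg). Each mouse was hybridised on 1 array, with lung RNA in the Cy5 channel against a universal mouse reference RNA, pooled from 11 mouse cell lines, in the Cy3 channel. Values are log2 ratios of lung over this reference after loess normalisation, so a negative value says that the transcript was less abundant in lung RNA than in the reference pool, and differences between dose groups are log2 fold changes.

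Immediate early genes are transcribed within minutes of a growth factor, stress or calcium signal, without new protein synthesis, through serum response factor with its ETS-domain partners and through CREB. Their transcripts are short-lived, and their products act on a second set of genes. Fos and Fosb pair with Jun or Junb to form the AP-1 transcription factor, Egr1 and Egr2 are zinc finger factors that bind GC-rich sites, Nr4a1 is an orphan nuclear receptor, and Klf4 is a zinc finger factor of differentiation and growth arrest. Ier2 is a nuclear immediate early protein, and Ier3, a stress-inducible regulator of cell survival, is not itself a DNA-binding factor, so the name transcription factor does not cover it. In the lung these genes are inducible in epithelial, endothelial, stromal and immune cells.

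All 10 probes were well above background in the lung channel on all 18 arrays, and none was saturated. The 6 alveolar type 2 markers averaged log2 ratios of 4.27 to 4.88 per mouse, so the tissue carried the markers of its label. Between 51.5% and 61.0% of probes per array were well above background. Each of the 3 slides held all 4 dose groups, but the column of the array on the slide followed the dose group, so that position and dose cannot be told apart. Among markers of other cell types, Pecam1 of endothelium (0.74) and Mmp8 of neutrophils (0.98) were called higher at the high dose, and Gzma of cytotoxic lymphocytes (-2.25), Col1a1 (-0.64) and Col3a1 (-0.87) of fibroblasts were called lower (log2 fold changes in limma's fit). The endothelial list did not follow Pecam1, as 2 of its 6 markers had a higher mean at the high dose, the list median was -0.10 and Kdr had -0.38 (adjusted p = 0.0168). In the neutrophil list 5 of 6 markers had a higher mean at the high dose (list median 0.35), and Csf3r was lower (-0.39). In the B cell list 4 of 5 markers had a higher mean at the high dose (list median 0.49), Pax5 was lower (-0.11), and none was called there. At the medium dose Cd79b (0.70) and Ms4a1 (0.70) of that list were called higher. In the T and natural killer cell list 2 of 8 were higher, Cd3g (0.07) and Cd8a (0.21), and the list median was -0.29. In the smooth muscle and fibroblast list 0 of 7 were higher (list median -0.46). The part of these markers in the values of the immediate early genes was not tested. In whole lung RNA fewer cells of a type and less RNA per cell cannot be told apart.

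The comparison with vehicle asked whether immediate early transcripts stood at a different level 3 days after the end of exposure. None of the 10 was called at any dose (limma, Benjamini-Hochberg adjusted p of 0.05 or less with at least a 1.5-fold change), where 0.0898% of all probes were called at the low dose, 0.726% in the medium group and 1.2% at the high dose. Without adjustment, 1 member at the low dose, 2 in the medium group and 2 at the high dose had a p under 0.05. Over all probes 8.01%, 15.3% and 15.7% did, and over the 13448 genes that, like the members, were well above background on all arrays 12.1%, 27.0% and 27.4% did. The members went both ways, with 5, 5 and 6 of 10 having a higher mean than vehicle as the dose increased from low to high. Their median log2 fold change was -0.05, -0.05 and 0.04, beside 0.02, 0.02 and 0.03 over those 13448 genes. The 95% confidence interval lay within a 1.5-fold change in both directions for all 10 members at the low dose, for 7 in the medium group and for 6 at the high dose. A larger change of those 6 was therefore outside their intervals, while for Fosb, Jun, Nr4a1 and Klf4 at the high dose the interval reached past 1.5-fold. High against low dose gave no called member either, where 0.0449% of all probes were called. In that comparison 1 member had an unadjusted p under 0.05, beside 6.71% of all probes and 8.48% of the 13448 genes. The 3 comparisons with vehicle share the same 5 vehicle mice.

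**Figure D1:**
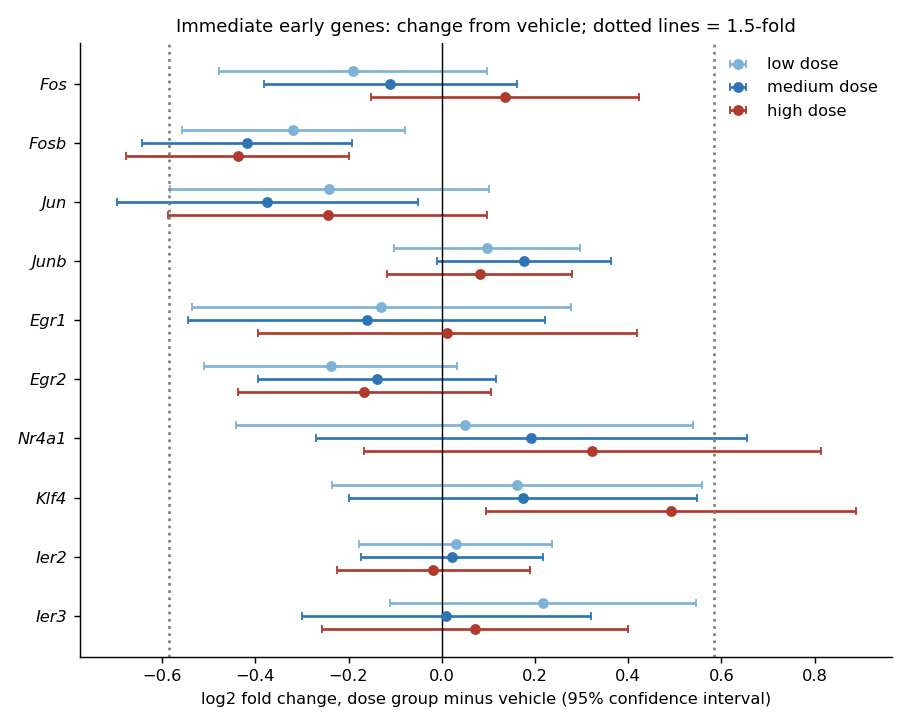
Log2 fold change of each immediate early gene at the low, medium and high dose against vehicle on the horizontal axis, with genes on the vertical axis. Points are limma estimates, bars are 95% confidence intervals, and the dotted lines mark a 1.5-fold change. All points lie inside the dotted lines, and the Fosb intervals lie below 0 at all 3 doses.

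Of the Fos family, Fosb had lower ratios in exposed than in vehicle lung. Its log2 ratios were -2.38, -2.32, -2.45, -2.45 and -1.80 in vehicle mice 1 to 5, -2.69, -2.62, -2.63 and -2.45 at the low dose, -2.87, -2.87, -2.56, -2.52 and -2.68 in the medium group and -2.64, -2.86, -2.66 and -2.71 at the high dose. Every exposed mouse was below every vehicle mouse, so no dose group overlapped the vehicle group. At the low dose the margin was small, with mouse 10 at -2.4537 and vehicle mouse 4 at -2.4519. The share of all genes whose groups do not overlap was not counted, for Fosb or for the other members. Group means were -2.28 ± 0.28 (SD, n = 5), -2.60 ± 0.10 (n = 4), -2.70 ± 0.17 (n = 5) and -2.72 ± 0.10 (n = 4). The log2 fold change was -0.32 (SE 0.12, adjusted p = 0.424) at the low dose, -0.42 (SE 0.11, adjusted p = 0.0337) in the medium group and -0.44 (SE 0.12, adjusted p = 0.0324) at the high dose in limma's fit. At the medium and high doses the difference therefore passed the adjusted p but not the fold limit, being 0.749-fold and 0.738-fold of vehicle. With no fold limit, 3.54% of all probes pass in the medium group and 4.18% at the high dose. Two-sided exact permutation tests gave p = 0.0317, 0.00794 and 0.00794, and 0.00794 is the smallest that these group sizes allow against vehicle. Vehicle mouse 5, at -1.80, contributed to the size. Without it the differences were -0.20, -0.30 and -0.32, the adjusted p rose to 0.584, 0.0677 and 0.0573, and no dose group overlapped the remaining 4 vehicle mice. Leaving out each mouse in turn gave adjusted p between 0.0266 and 0.0956 for the medium dose and between 0.0288 and 0.119 for the high dose, and over all 29 alternatives the high-dose value ranged from 0.0151 to 0.890, the highest under median centring. Within the 3 slides, high minus vehicle was -0.40, -0.21 and -0.91, the last being the slide with vehicle mouse 5.

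Fos itself did not share this order. Its log2 ratios were -3.32, -2.78, -3.14, -2.95 and -2.50 in vehicle lungs, -3.44, -3.07, -3.03 and -2.98 at the low dose, -3.09, -3.11, -3.23, -2.73 and -3.08 in the medium group and -2.58, -2.85, -2.93 and -2.84 at the high dose. The low and medium groups lay within or near the vehicle range and the high group in its upper part. The difference from vehicle was 0.14 at the high dose (SE 0.14, adjusted p = 0.730), and it was -0.02 with scale normalisation between arrays. All 4 high-dose mice were above all 4 low-dose mice, with a log2 difference of 0.33 (95% confidence interval 0.02 to 0.63, limma adjusted p = 0.712). The exact permutation p was 0.0286, the smallest that 4 mice against 4 allow. Of the 13448 genes, 8.48% had an unadjusted limma p under 0.05 between these groups. The share of them that separate completely was not counted. Fos is the one member spotted 10 times on the array, and the usable spots of an array had an SD of 0.06 to 0.13. Between mice the SD was 0.32 in vehicle, or 0.23 without vehicle mouse 5. It was 0.21 at the low dose, 0.19 in the medium group and 0.15 at the high dose.

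Jun, the AP-1 subunit that can also pair with itself, had log2 ratios of 0.88, 0.85, 0.85, 1.26 and 1.15 in vehicle mice, 1.16, 0.45, 0.98 and 0.44 at the low dose, 0.32, 0.73, 1.18, 0.65 and 0.23 in the medium group and 0.69, 0.75, 0.82 and 0.75 at the high dose. The low and medium groups spread widely and overlapped the vehicle group, and the high group was tight (SD 0.05, n = 4) and lay below all 5 vehicle mice. The log2 fold change was -0.37 at the medium dose (SE 0.16, adjusted p = 0.228) and -0.24 at the high dose (SE 0.16, adjusted p = 0.536) by limma. At the high dose it was 0.01 when arrays were centred on the median in place of loess, a setting that also moved the median of the 13448 genes to 0.19. The exact permutation p was 0.0873 in the medium group and 0.0397 at the high dose.

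Junb, which competes with Jun for Fos partners, was among the steadiest members. Its group means were -1.74 ± 0.15 in vehicle (SD, n = 5), -1.64 ± 0.22 at the low dose (n = 4), -1.56 ± 0.09 at the medium dose (n = 5) and -1.66 ± 0.06 at the high dose (n = 4). The medium-dose difference of 0.18 (95% confidence interval -0.01 to 0.36) was the widest of the 3 and did not pass (limma adjusted p = 0.368). In that group 3 of the 5 mice were above all vehicle mice, and the exact permutation p was 0.0397.

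Nr4a1 depended on a single control mouse. Its log2 ratios were -1.65, -1.69, -2.19, -1.80 and -0.35 in vehicle mice 1 to 5, -1.39, -1.43, -1.49 and -1.64 at the low dose, -1.40, -1.20, -1.05, -1.30 and -1.77 in the medium group and -1.17, -1.03, -1.56 and -1.08 at the high dose. Vehicle mice 1 to 4 were below every high-dose and every low-dose mouse, while vehicle mouse 5 was above all other 17 mice. This order appears only with vehicle mouse 5 set aside for its high value. At the low dose the margin was small, with vehicle mouse 1 at -1.6484 and mouse 10 at -1.6402. Medium-dose mouse 15 (-1.77) lay within the range of vehicle mice 1 to 4. With all 5 vehicle mice the difference at the high dose was 0.32 (SE 0.24, adjusted p = 0.581, limma). Without vehicle mouse 5 it was 0.62, or 1.54-fold (95% confidence interval 0.32 to 0.92 on the log2 scale, adjusted p = 0.0190), and Nr4a1 was then called at the high dose, where 1.22% of all probes were called. The differences at the low and medium doses were 0.05 and 0.19 with it, and 0.35 (adjusted p = 0.532) and 0.49 (adjusted p = 0.0611) without it. Nr4a1 was the one member called when any single mouse was left out, and over all 29 alternatives its adjusted p at the high dose ranged from 0.0190 to 0.840.

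With all mice, Klf4 had the largest positive difference among the members. Its log2 ratios were 1.02, 1.08, 0.73, 1.52 and 1.38 in vehicle mice, 1.80, 1.14, 1.53 and 0.74 at the low dose, 1.64, 1.51, 1.22, 1.27 and 0.96 in the medium group and 1.86, 1.88, 1.48 and 1.33 at the high dose. A pair of high-dose mice lay above all vehicle mice and the other pair inside the vehicle range. The difference at the high dose was 0.49, or 1.41-fold (SE 0.19, 95% confidence interval 0.10 to 0.89 on the log2 scale), with an adjusted p of 0.182 in limma's fit and an exact permutation p of 0.0714. Within slides it was 0.82, 0.35 and -0.05, so the third slide, with 1 mouse on each side, did not share the difference.

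Egr1, a zinc finger factor induced by growth factors, stood well below the reference pool. Its log2 ratios were -4.05, -3.70, -3.89, -3.98 and -2.69 in vehicle lungs, -3.73, -3.74, -3.96 and -3.74 at the low dose, -3.97, -3.82, -3.79, -3.41 and -4.13 in the medium group and -3.56, -3.58, -3.86 and -3.61 at the high dose. Apart from vehicle mouse 5 at -2.69, the groups overlapped throughout. The difference at the high dose was 0.01 (SE 0.20, adjusted p = 0.989), and 0.25 without that mouse (SE 0.12, adjusted p = 0.343, limma). Egr2, known for its part in peripheral myelination and lymphocyte tolerance, ranged from -1.29 to -0.69 in vehicle, -1.43 to -1.02 at the low, -1.32 to -0.73 at the medium and -1.34 to -0.93 at the high dose. Its differences from vehicle were -0.24, -0.14 and -0.17 in that order, with adjusted p between 0.618 and 0.688 by limma.

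Ier2 and Ier3 were the members outside the classic factor families. Ier2 differed from vehicle by 0.03, 0.02 and -0.02 from low to high dose, and the 95% confidence interval at the high dose ran from -0.22 to 0.19. Ier3 differed by 0.22, 0.01 and 0.07. The low-dose value of Ier3 rested on mouse 6, at a log2 ratio of 0.37, while the other low-dose mice lay between -0.54 and -0.25. Without mouse 6 the low-dose difference was 0.02.

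**Figure D2:**
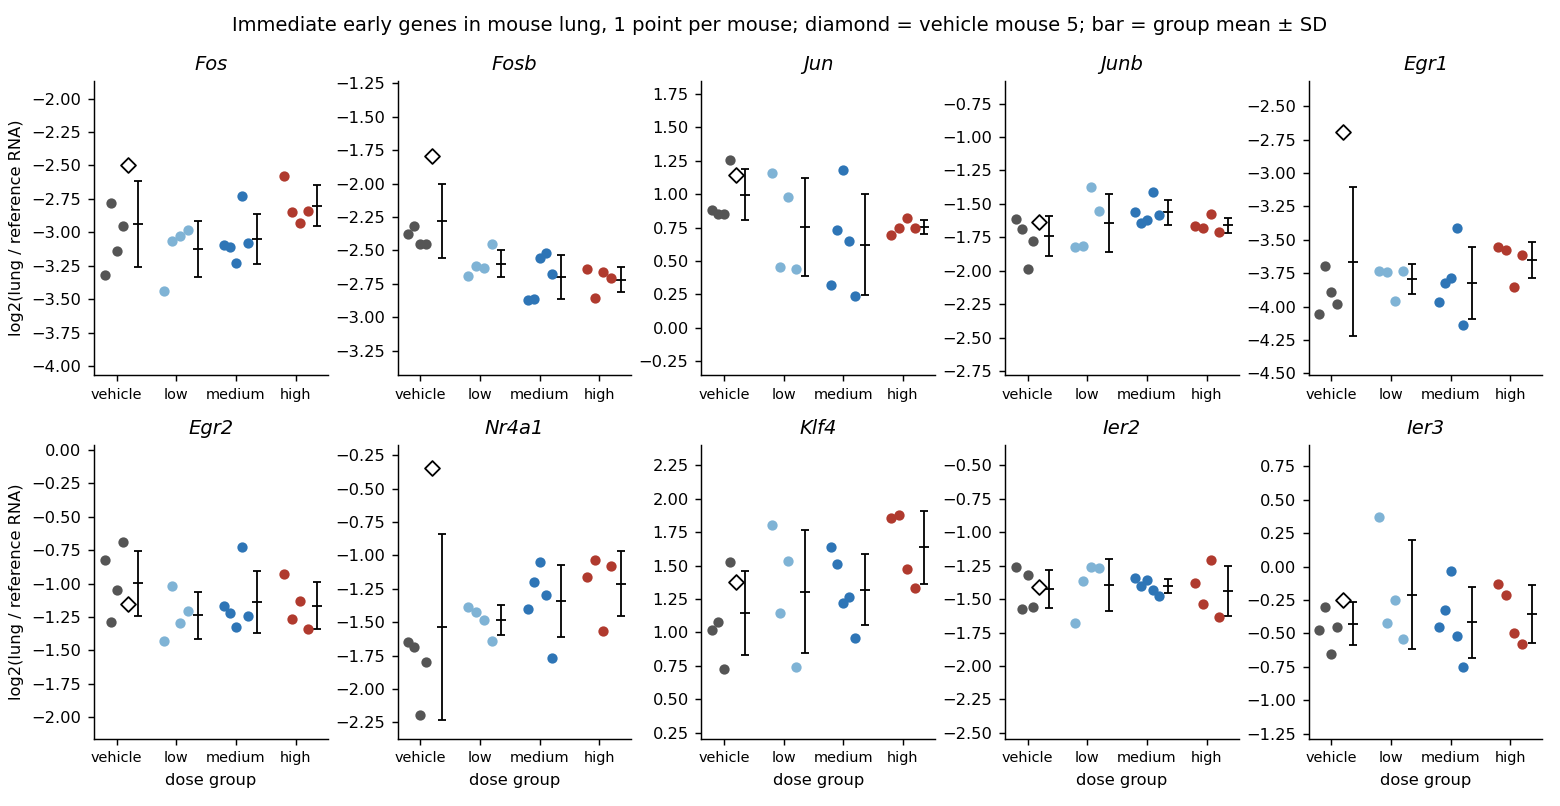
Log2 ratio of lung over reference RNA for each immediate early gene on the vertical axis, by dose group on the horizontal axis, with 1 point per mouse and the group mean ± SD beside the points. The diamond is vehicle mouse 5, which lies above all other mice for Fos, Fosb, Egr1 and Nr4a1. All panels span 2.2 log2 units.

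Vehicle mouse 5 had the highest ratio of all 18 mice in 4 members. For Fos the margin was small, with this mouse at -2.50 and high-dose mouse 16 at -2.58. Over the mean of the other 4 vehicle mice, its level was 2.79-fold for Nr4a1, 2.32-fold for Egr1, 1.52-fold for Fosb and 1.46-fold for Fos, and each of these was above all other 17 mice. The remaining 6 members ranged from 0.873-fold for Egr2 to 1.22-fold for Klf4 and were within the range of the other mice. Among the 13424 genes well above background and measured on every array, 5.33% were highest in this mouse and 0.946% were at least 1.5-fold above the other vehicle mice. The other 3 mice on its slide had Nr4a1 at -1.64, -1.77 and -1.08 and Egr1 at -3.74, -4.13 and -3.61. Of these, high-dose mouse 20 had the 4th highest Nr4a1 ratio of the 18 mice, and low-dose mouse 10 was the highest of its group for Fos (-2.98) and Fosb (-2.45). Over all members, however, mouse 10 was the lowest of its group in 4 and the highest in 2. Medium-dose mouse 15 was the lowest in 6 and mouse 20 in 5, and each was the highest in 0. The array of vehicle mouse 5 had the highest share of probes well above background (61.0%, against 56.4% to 59.2% for the rest of its slide). Of the 6 cardiomyocyte markers, 5 were at least 1.5-fold above the other vehicle mice, with Myh6, the atrial and ventricular myosin heavy chain of mouse heart, 2.67 higher on the log2 scale. Their mean log2 ratio was 3.24 in vehicle mouse 5, 0.467 to 2.81 in the other vehicle mice, 1.33 to 3.84 at the low dose, 0.498 to 2.76 in the medium group and 0.526 to 3.21 at the high dose. Low-dose mouse 6 had the highest mean of these markers, 3.84. Its Nr4a1 (-1.39) was the highest of the low group, and its Egr1 (-3.73) was nearly level with mice 7 and 10 (both -3.74). Both were below vehicle mouse 5. High-dose mouse 20 had the highest marker mean of its group (3.21), near that of vehicle mouse 5, with Nr4a1 at -1.08 and Egr1 at -3.61. Medium-dose mouse 15 had the highest marker mean of its group (2.76) with the lowest Nr4a1 (-1.77) and Egr1 (-4.13). Vehicle mouse 1 (marker mean 2.81) had the lowest Egr1 of its group (-4.05). Vehicle mouse 3 (2.75) had the lowest Nr4a1 (-2.19). The part of the markers, the slide and the array in the values of vehicle mouse 5 was not tested.

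**Figure D3:**
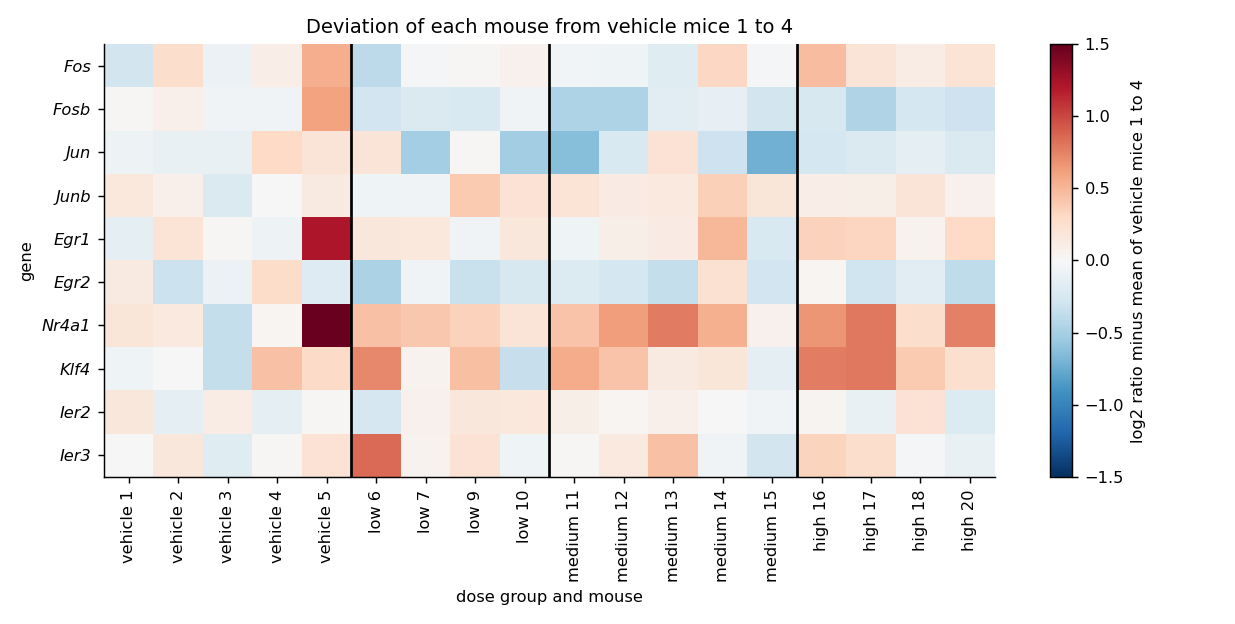
Deviation of each mouse (horizontal axis, ordered by dose group) from the mean of vehicle mice 1 to 4 for each immediate early gene (vertical axis), as a log2 difference in colour, red for higher and blue for lower. The darkest red cells are Nr4a1 (1.48) and Egr1 (1.22) in vehicle mouse 5, and the Fosb row is blue in all exposed mice.

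The upstream sequences of Fos, Fosb and Nr4a1 are shown because these members were high together in vehicle mouse 5 and have an entry among the RefSeq promoters used here, which held 8 of the 10 members and not Ier2 or Egr1. Each is the 250 bases before the start of a RefSeq promoter entry, 5′ to 3′ in the direction of the gene, in build GRCm38.p6. This start is not always the outer end of the gene. The Fosb stretch reaches into the annotated gene span (chr7:19302696-19310118), and its TGACG lies in that part. The Nr4a1 stretch lies inside its gene span (chr15:101253902-101274795). Capitals mark TGACG or its reverse complement CGTCA, the short form of the site that CREB and related factors bind. Fos lies at chr12:85473640-85473889 on the plus strand, Fosb at chr7:19310046-19310295 on the minus strand and Nr4a1 at chr15:101266596-101266845 on the plus strand.
Fos: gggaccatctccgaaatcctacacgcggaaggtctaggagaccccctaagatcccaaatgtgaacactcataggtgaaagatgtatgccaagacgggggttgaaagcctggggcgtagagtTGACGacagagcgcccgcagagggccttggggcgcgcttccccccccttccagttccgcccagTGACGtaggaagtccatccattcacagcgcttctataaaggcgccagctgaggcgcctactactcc
Fosb: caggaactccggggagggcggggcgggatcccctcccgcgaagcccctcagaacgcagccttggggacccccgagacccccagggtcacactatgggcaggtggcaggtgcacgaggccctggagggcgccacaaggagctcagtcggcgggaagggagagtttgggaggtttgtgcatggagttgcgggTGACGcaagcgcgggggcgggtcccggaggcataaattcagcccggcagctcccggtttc
Nr4a1: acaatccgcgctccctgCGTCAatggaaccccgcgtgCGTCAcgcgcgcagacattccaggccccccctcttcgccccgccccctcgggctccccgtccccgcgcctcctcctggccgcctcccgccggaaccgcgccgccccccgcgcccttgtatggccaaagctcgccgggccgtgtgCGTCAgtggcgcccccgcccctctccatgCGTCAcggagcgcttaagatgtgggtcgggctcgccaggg

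TGACG occurred on either strand in 6 of the 8 members with an entry (Fos, Fosb, Junb, Egr2, Nr4a1 and Klf4), and in 17.8% of all 32851 promoters of the same length. For this and the other motifs, a member counted if any of its promoter entries held the motif, and Egr2 has several. The shares are per promoter, so the counts and the shares are not on the same basis. Fos held it at 129 and 66 bases before the start of its entry, Fosb at 60, and Nr4a1 at 4 places. GCGNGGGCG, the site of the Egr factors, was in Fosb, Nr4a1 and Klf4 and in 4.7% of all promoters. TGANTCA, the AP-1 site, was in none of the 8 and in 6.75% of all promoters. The CArG box of serum response factor was in Egr2 within this window and in 1.47% of all promoters. GCGTG, the core of the aryl hydrocarbon receptor site, was in Fos, Junb and Nr4a1 and in 28.2% of all promoters. Some matches of different motifs share bases, and a match describes letters in the window, not a bound site.

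Several members varied between mice of one group more than most genes did. The residual SD of the fit was 0.42 for Nr4a1, 0.34 for Egr1, 0.33 for Klf4, 0.28 for Jun and 0.27 for Ier3, where the median of the 13448 genes was 0.15. These values lay at percentiles 97.4, 94.6, 94.1, 90.2 and 88.8. Without vehicle mouse 5, Nr4a1 moved to percentile 82.0 and Egr1 to 68.4, while Klf4 (94.2) and Jun (90.6) kept their place. Ier2 and Junb, at percentiles 48.2 and 41.9, varied like a typical gene. Fosb was at 67.4 with all mice and at 24.0 without vehicle mouse 5.

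The members did not vary as 1 block. After removal of group means, the 45 pairs of members had a median Pearson r of 0.16 over the 18 mice, and 8 pairs were over 0.5. Without vehicle mouse 5 the median was 0.06, and 5 pairs were over 0.5. Egr1 with Nr4a1 went from 0.85 to 0.47 and Fosb with Egr1 from 0.79 to 0.38, so both were lower without that mouse. Jun with Ier3 (0.72 with all mice and 0.72 without), Ier3 with Klf4 (0.71 and 0.70) and Jun with Klf4 (0.52 and 0.50) did not depend on it. These values describe the arrays and carry no test, and both genes of a pair share the array of each mouse.

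Among 13438 other genes well above background on all arrays, the pattern over mice most like the mean of the members was that of Ccn1, a matricellular protein gene that is itself an immediate early target (Pearson r = 0.83, Spearman rho = 0.85 over 18 mice). It was followed by Dazap2 (0.82), Wdcp (0.82), the autophagy gene Rb1cc1 (0.81), the zinc finger factor Hivep1 (0.80), Msl2 (0.77), Mtmr12 (0.76), the Mediator subunit Med26 (0.76), the guidance cue Ntn1 (0.75) and the homeobox gene Hoxb4 (0.74), all as Pearson r. Without vehicle mouse 5, only Med26 was still among the 10 most alike (r = 0.88), and Ccn1 had r = 0.82 at rank 34.

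The other genes of the pathway were counted by list. Of 13 AP-1 partners, 1 was called at the high dose, Batf, a bZIP factor of lymphoid cells, where 1.2% of all probes and 2.23% of the 13448 genes were called. Its mean log2 ratio was 1.86 in vehicle and 1.19 at the high dose, a log2 fold change of -0.67 (SE 0.14, limma adjusted p = 0.00563), after -0.37 at the low and -0.51 at the medium dose. It missed the call at the high dose under median centring (-0.47, adjusted p = 0.784) and under scale normalisation (-0.58, adjusted p = 0.0220), and its adjusted p over 29 alternatives ranged from 0.000948 to 0.784. No partner was called at the low or medium dose. Atf3, a stress-induced partner of Jun, had a log2 fold change of 0.39 (SE 0.11, adjusted p = 0.0451) and missed the fold limit. The list's median log2 fold change at the high dose was 0.00, beside 0.03 over all 13448 genes.

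Of 23 further immediate early genes, Plk2, a polo-like kinase that is also a p53 target, was called higher at the medium and high dose, where 1.36% and 2.23% of the 13448 genes were called. Its mean log2 ratio was -1.19, -0.68, -0.50 and -0.23 from vehicle to the high dose. The log2 fold change was 0.50 (adjusted p = 0.0307), 0.69 (adjusted p = 0.000140) and 0.95 (SE 0.10, adjusted p = 3.34e-06) at the low, medium and high dose in limma's fit. Ier5, an immediate early gene also known as a p53 target, had a log2 fold change of 0.58 at the high dose (SE 0.10, adjusted p = 0.000978), just under the 1.5-fold limit, and was called under several other settings. The list's median at the high dose was 0.05.

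None of 18 feedback regulators and none of 24 upstream signalling genes was called at any dose in limma's fit, and 8 of the 18 and 5 of the 24 had an unadjusted p under 0.05 at the high dose, beside 27.4% of the 13448 genes. The list medians were -0.06 and -0.01. Socs3, an inhibitor of cytokine signalling, had the value -0.33 (SE 0.10, adjusted p = 0.0603) and Spry1, an inhibitor of receptor tyrosine kinase signalling, 0.30 (SE 0.13, adjusted p = 0.222). Egfr, a receptor upstream of the ERK pathway, had -0.46 (SE 0.10, adjusted p = 0.0107) and Elk1, the ETS partner of serum response factor, -0.46 (SE 0.15, adjusted p = 0.0942). The Elk1 value was 0.00 when the Cy5 channel was used alone.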

How the data were processed

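Lung RNA of 18 mice was hybridised on Agilent 2-colour 60-mer arrays without dye swaps. The authors deposited scanner output with red and green median intensities and log10 ratios for each spot, per the file headers written by Agilent Feature Extraction 11.0.1.1, and a table of normalised log2 ratios. Here log2 ratios of the median intensities were taken without background subtraction and normalised by loess within arrays (R 4.3.3, limma 3.58.1), with outlier spots (215 to 307 per array) left out and spots of a probe averaged. All 4 groups entered one limma fit, with Benjamini-Hochberg adjustment over 55681 probes in each comparison, of which 86 lacked a value on some array, and calls needed both a 1.5-fold difference and an adjusted p no higher than 0.05. The study used MAANOVA, which was not run, and limma stands in for it. The fitting code was tested on data with known changes. RefSeq (GRCm38) named 27235 probes, and the brightest probe stood for a gene. Named genes were all members, genes of the other lists that were called, the 2 largest changes per list at the high dose, and the 10 genes most like the members. Members and lists were chosen with earlier results of these data known. Alternatives were another background correction, scanner ratios, the authors' log2 table, other normalisations, a slide block, filters, no fold limit and leaving out each mouse. The number of arrays limits the precision.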

Additional observations from a re-analysis of the deposited data

Results flagged for a closer look

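In 40 sets of values (10 genes in 4 groups), 4 held a mouse whose gap to its nearest neighbour took up an unusually large share of the group's range, and chance gives about 1 in 20. Vehicle mouse 5 was such a case for Fosb (gap over range 0.797, log2 ratio -1.80) and for Egr1 (0.739, log2 ratio -2.69). Egr2 in medium-dose mouse 14 was another (0.743, log2 ratio -0.73). Egr1 in low-dose mouse 9 was the last (0.964, log2 ratio -3.96), in a group whose whole range was 0.22. For Nr4a1 (0.704) and Fos (0.341) vehicle mouse 5 did not pass the limit of 0.71 used for groups of 5 mice.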

How the results depend on the processing

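The count of called members stayed at 0 in all 4 comparisons, except that with no fold limit it was 1 (Fosb) for medium and for high dose, and 0 to 1 at the high dose when each mouse was left out, the 1 being Nr4a1 without vehicle mouse 5. No paired analysis was possible because the groups share no mouse numbers. Of 870 values of single members under alternatives, 827 kept their direction and their side of the threshold. A further 40 changed sign, all in comparisons that were not called and whose main log2 fold change was at most 0.245 in size. Many of the 827 could not change direction. The filter, the fit of only the groups compared, no fold limit and averaging of probes leave a member's fold change as it was. So does leaving out a mouse of a group outside the comparison. The counts are therefore no measure of robustness. Median centring, which moved the median of all genes at the high dose from 0.03 to 0.19, turned Egr1 at the low (0.0034) and medium dose (0.0021), Fos at the medium dose (0.0022), Jun at the high dose (0.0055) and Ier2 at the high dose (0.15). Scale normalisation turned Ier2 (-0.029) and Ier3 (-0.00373) at the medium dose, and Fos (-0.019), Junb (-0.0081) and Egr1 (-0.18) at the high dose. Scanner ratios turned Ier2 at the low dose (-0.0083) and Ier3 at the medium dose (-0.025). The Cy5 channel alone turned Ier2 (0.032) and Elk1 (0.0030) at the high dose, and the slide block turned Egr1 at the high dose (-0.0064). The cause was not tested. Leaving out each mouse moved Egr1 from -0.23 to 0.11, from -0.26 to 0.082 and from -0.086 to 0.25 for the low, medium and high dose. It moved Ier2 from -0.014 to 0.13, from -0.016 to 0.064 and from -0.095 to 0.047. Ier3 ranged from -0.086 to 0.093 at the medium and from -0.0017 to 0.15 at the high dose, Nr4a1 from -0.12 to 0.35 and Klf4 from -0.0046 to 0.35 at the low dose. Fosb kept its direction under all 29 alternatives, some of which could not change it, with adjusted p from 0.0151 to 0.890 at the high dose. The likeness and pair values without vehicle mouse 5, and the alternatives for genes outside the members, were chosen after seeing the data. The members were well above background on every array, but some signals were low and no background was subtracted. Lung-channel intensities were 134 to 262 for Junb, 196 to 481 for Fosb and 205 to 496 for Fos, beside array medians of 110 to 142. With scanner ratios the log2 fold change of Junb at the medium dose was 0.32 in place of 0.18. That of Fosb at the high dose was -0.55 in place of -0.44. The part of low signal in these differences was not tested.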
